A study of Homo sapiens with 6 samples.

Results

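Integrins and the core proteins of focal adhesions were described in 6 RNA libraries of MDA-MB-231, an established human breast cancer cell line. Members were matched by gene symbol. They were the integrin alpha and beta subunits and 14 named adhesion proteins (talins, kindlins, integrin-linked kinase, PINCH1, alpha-parvin, focal adhesion kinase, paxillin, vinculin, zyxin and tensins 1 and 3). The symbols matched 40 of 60591 genes in the count table, 18 of them alpha subunits and 8 beta subunits. All libraries came from a bone-homing variant of the line, and no other genotype was included. Static cells had no flow, low flow cells received fluid at 1 mL/min and high flow cells at 15 mL/min, in a 3D model of mechanical loading of bone, with 2 libraries per condition, called static 1 and 2, low flow 1 and 2 and high flow 1 and 2 after their replicate numbers. The duration of flow and the scaffold are not given in the labels used here.

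Integrins are cell surface receptors made of 1 alpha and 1 beta chain, and the pair decides which matrix protein is bound: collagens, laminins, fibronectin or vitronectin. Talin and kindlin bind the beta tail and switch the receptor to its active form. Integrin-linked kinase, PINCH and parvin form a scaffold on that tail, focal adhesion kinase and paxillin pass on signals, and vinculin, zyxin and tensins tie the complex to actin, so that a focal adhesion senses and carries force.

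Total counts were 17822642 and 23544307 in the static libraries, 45174328 and 47067620 under low flow, and 43965176 and 53279537 under high flow. The members took 0.573 to 0.721% of these counts. Static and low flow columns were named for 1 sequencing lane and both high flow columns for another. Lane and high flow thus cannot be told apart, and no within-lane value exists for them. The high flow column names also differed from the others in form, with a mark for sorted alignments. A difference in handling behind these names could not be told apart from high flow either. The labels do not say that the 2 libraries of a condition were separate cultures, so the p-values reflect only how much these libraries vary. The labels also name the cells endothelial. The endothelial markers CDH5, VWF, CLDN5 and EMCN were at 0.220 CPM (counts scaled to a common library total, after TMM) or below in every library, whereas VIM, a mesenchymal filament, stood at 3615 to 5028 CPM. Of 8 endothelial markers, 3 (PECAM1, ESAM and TIE1) exceeded 1 CPM in every library, and the list summed to 63.6 to 86.3 CPM in static cells, 80.9 to 94.5 CPM under low flow and 90.8 to 93.9 CPM under high flow. The leukocyte marker PTPRC did not exceed 0.169 CPM, TYROBP and the platelet genes PF4, GP9 and PPBP were at 0, and CD68 lay at 258 to 339 CPM. Stromal and osteoblast lists summed to 3.82 to 5.75 CPM and 51.3 to 68.1 CPM, the latter nearly all RUNX2, with IBSP at 0.

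Levels of different genes were compared as CPM per kilobase of exon. ITGB1, the beta chain shared by the collagen, laminin and fibronectin receptors, was highest, with a mean over all libraries of 184.0 CPM per kilobase. The alpha chains of its collagen and laminin receptors followed: ITGA2 at 105 CPM per kilobase, ITGA3 at 88.6 CPM per kilobase and ITGA6 at 77.0 CPM per kilobase. Talin 1 (TLN1) was next, at 45.6 CPM per kilobase. With the longest transcript in place of all exons, ITGB1 stayed first and ITGA3 came before ITGA2, at 159 against 106 CPM per kilobase. At the other end, ITGA4, ITGA8, ITGA9, ITGAD and ITGAL were too low to be tested: none exceeded 0.174 CPM in any library, and 3 counts, the limit that a count of 0 allows, correspond to 0.0563 to 0.165 CPM. ITGA4, a chain of the VCAM1 receptor, had no count in 5 of the 6 libraries. The remaining 35 members were tested.

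**Figure D1:**
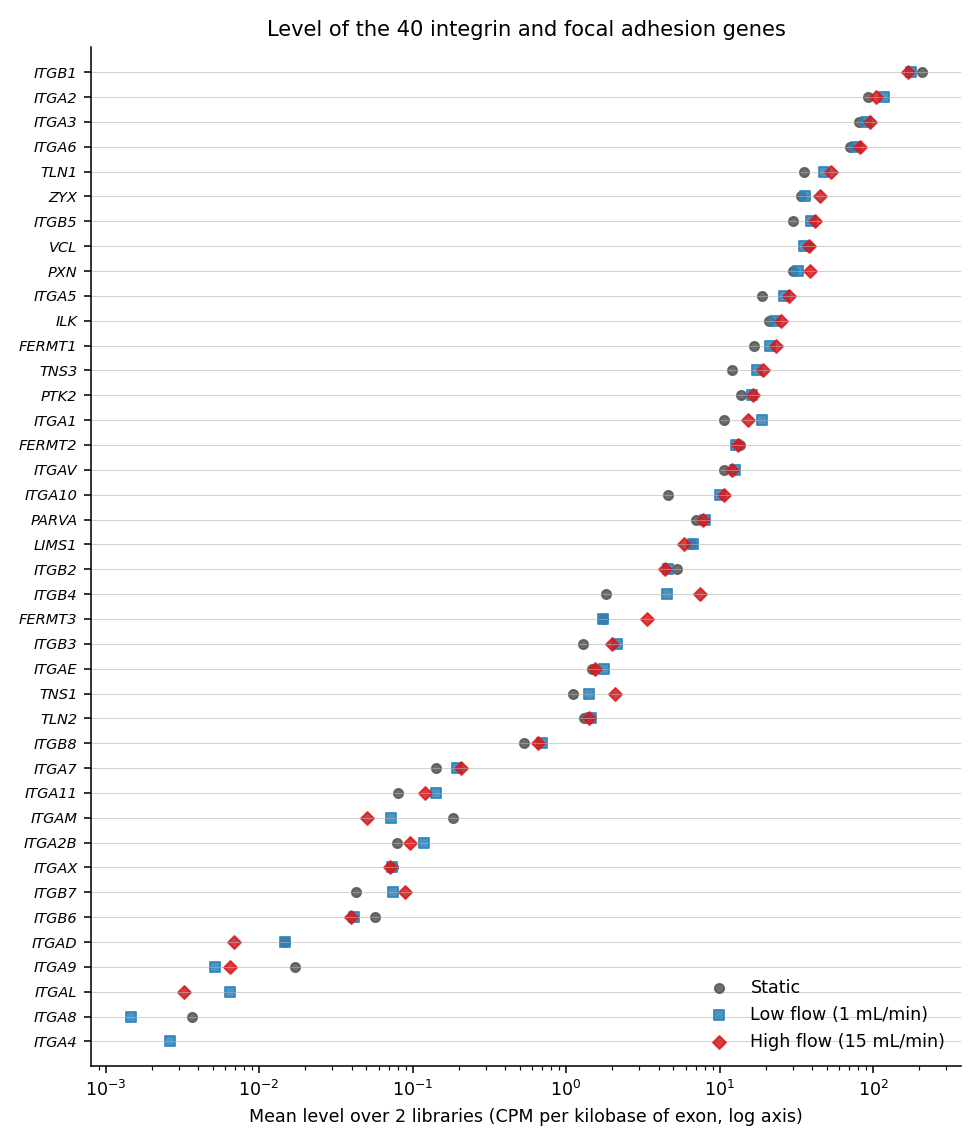
Mean level of each member over the 2 libraries of a condition, in CPM per kilobase of exon on a log axis, ordered by overall mean, with 1 symbol per condition; means of 0 are not drawn. ITGB1, ITGA2, ITGA3 and ITGA6 are the highest, and the untested alpha subunits lie at the bottom.

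Under low flow, 6 of the 35 tested members rose against static cells and none fell (edgeR quasi-likelihood test, adjusted p under 0.05 over all 20676 genes tested). At an unadjusted p under 0.05, 1 member was lower, and DESeq2 called 0 lower. The 6 that rose were the collagen receptor chains ITGA1 and ITGA10, the fibronectin receptor chain ITGA5, the vitronectin receptor chain ITGB5, TLN1 and tensin 3 (TNS3). That is 17.1% of the members, where 3.25% of all genes tested were called higher and 3.49% lower. The median log2 fold change was 0.25 over the members and 0.01 over all genes, and 28 of the 35 members had a positive value. Both low flow libraries lay above both static libraries for 19 members and below them for 3, against 27.1% and 26.3% of all genes. Under high flow the same 6 rose, joined by kindlin 3 (FERMT3), paxillin (PXN) and zyxin (ZYX), so that 9 members (25.7%) rose and 1, ITGAM, fell. Of all genes, 7.49% were called higher and 6.43% lower in that comparison. Here the members' median log2 fold change was 0.27 and that of all genes 0.00. High flow libraries stood above static libraries without overlap for 23 members and below for 5, against 29.9% and 29.4% of all genes. Both comparisons share the static libraries, so their calls are not independent. RNA was taken from whole cultures, in which a change in the number of cells of a type and a change in RNA per cell cannot be told apart.

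**Figure D2:**
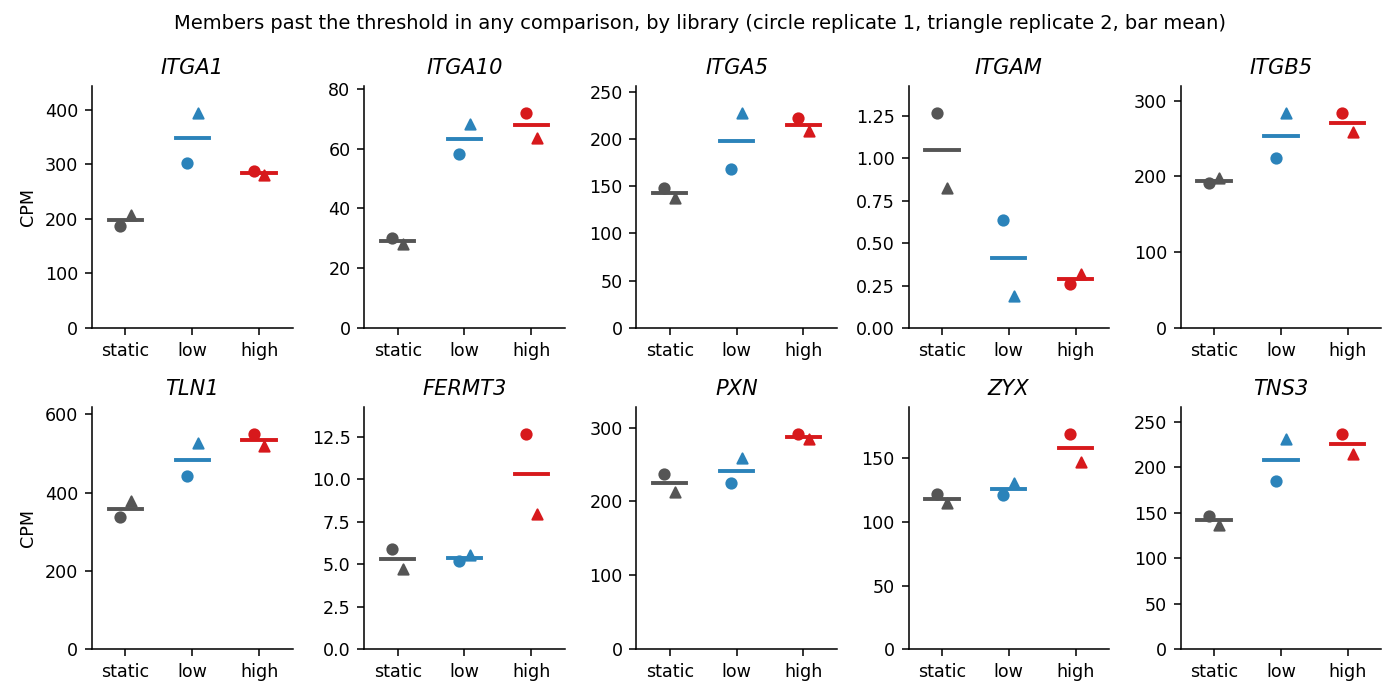
CPM of each member called in any comparison, 1 panel per gene with its own axis from 0, by condition; circles are replicate 1, triangles replicate 2 and bars the mean. The low flow libraries of ITGA1 and ITGA10 lie above both static libraries, whereas FERMT3 is high only in the high flow libraries, at 12.7 and 7.96 CPM.

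Of the 4 collagen-binding alpha chains, ITGA1 and ITGA10 rose under both flow rates. ITGA10 (alpha 10; chr1:145891208-145910189, minus strand, GRCh38) was at 30.1 and 28.0 CPM in static cells, 58.0 and 68.3 CPM under low flow, and 72.0 and 63.5 CPM under high flow. All 4 flow libraries were above both static libraries, and the flow rates overlapped. The log2 fold change was 1.12 (SE 0.11, adjusted p 4.17e-05, 2.18-fold) under low flow and 1.22 (SE 0.11, adjusted p 4.47e-06, 2.33-fold) under high flow. Both calls held in all 12 alternative analyses, with adjusted p up to 0.00565 and 0.00137.

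ITGA1 (alpha 1; chr5:52787896-52959210, plus strand) was at 187 and 207 CPM in static cells, 302 and 394 CPM under low flow, and 287 and 281 CPM under high flow. No flow library overlapped the static ones, and both low flow libraries were above both high flow libraries. It rose by a log2 fold change of 0.82 (SE 0.12, adjusted p 0.00105, 1.77-fold) under low flow, a call that held in all 12 alternatives with adjusted p up to 0.0285. Under high flow the log2 fold change was 0.53 (SE 0.12, adjusted p 0.00761). That call was lost when any 1 of the static or high flow libraries was left out: the adjusted p was 0.0651 without static 1, 0.0618 without static 2, 0.100 without high flow 1 and 0.0574 without high flow 2. PELO, which lies within ITGA1 on the same strand and shares 2.56% of its exon bases, was at 53.9 to 73.0 CPM, and overlapping genes on 1 strand share reads in these counts.

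ITGA2 (alpha 2) is the neighbouring gene on chromosome 5 and, per kilobase, the most abundant collagen receptor alpha chain in these cells. Its libraries held 699 and 762 CPM in static cells, 795 and 1071 CPM under low flow, and 808 and 849 CPM under high flow. Although no flow library overlapped the static ones, the log2 fold changes of 0.35 (SE 0.13, adjusted p 0.0994) and 0.18 (SE 0.13, adjusted p 0.36) did not pass the test, although DESeq2 and the fit without the expression filter called ITGA2 higher under low flow. ITGA11, the remaining collagen receptor alpha chain, stayed at 0.869 to 1.66 CPM and did not pass either.

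The promoters of the adjacent genes ITGA1 and ITGA2 are shown because both encode collagen receptor alpha chains and 1 of them was called. Sequences are from RefSeq (GRCh38.p14), 5′ to 3′ on the plus strand, and end before both the RefSeq and the GENCODE start. Capitals mark GC boxes (GGGCGG), the letters bound by Sp1-type factors.
ITGA1, chr5:52787666-52787895: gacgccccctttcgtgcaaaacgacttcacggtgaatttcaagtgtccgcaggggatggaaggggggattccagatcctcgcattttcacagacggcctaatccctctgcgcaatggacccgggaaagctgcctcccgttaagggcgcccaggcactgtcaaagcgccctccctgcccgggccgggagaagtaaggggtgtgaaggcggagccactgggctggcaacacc
ITGA2, chr5:52989102-52989325: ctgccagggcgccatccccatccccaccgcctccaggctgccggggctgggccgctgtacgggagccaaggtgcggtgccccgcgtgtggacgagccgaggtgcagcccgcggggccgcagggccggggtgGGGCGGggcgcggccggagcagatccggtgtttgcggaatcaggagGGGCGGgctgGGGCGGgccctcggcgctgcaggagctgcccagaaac
The ITGA1 stretch is 61.7% G and C over 230 bases and holds no GC box, and the ITGA2 stretch is 77.2% G and C over 224 bases and holds 3. Of all 35097 RefSeq promoters, 42.6% held a GC box on either strand in the 250 bases before the RefSeq start, as did 16 of the 28 members with a promoter entry. For members with more than 1 entry only the first was searched, whereas the share over all promoters includes every distinct start.

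TEAD factors, the DNA-binding partners of the mechanically regulated coactivators YAP and TAZ, bind the letters CATTCC. These letters, or GGAATG on the other strand, were found in 4 of the 28 member promoters (11.9% of all promoters held them). The 26 bases around each match are printed on the gene's own strand, with the match in capitals. The RefSeq starts used for these distances lie within the wider GENCODE gene spans, and so do all 4 windows.
ITGA10, chr1:145910126-145910151, minus strand, 91 bases before the RefSeq start: tcactcctccCATTCCttccaacttt
ITGA5, chr12:54419333-54419358, minus strand, 82 bases before the RefSeq start: cagggacccaGGAATGcccccccgcc
ITGB1, chr10:32958397-32958422, minus strand, 182 bases before the RefSeq start: cggcgggagaGGAATGcgtttccgga
VCL, chr10:73997935-73997960, plus strand, 171 bases before the RefSeq start: ccctcccttaGGAATGggggaggggc
ITGA10 and ITGA5 were among the called members, and ITGB1 and VCL were not. In the 250 bases before the RefSeq start, AP-1 (TGANTCA), SMAD (GTCTAGAC) and CRE (TGACGTCA) letters were found in no member promoter searched. They were found in 6.57%, 0.182% and 1.65% of all promoters. A CArG box, the serum response factor motif, was found in 1 member, ITGB6, and in 1.16% of all promoters. A match is a description of the letters and not evidence of binding.

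Among the chains that bind the RGD sequence of fibronectin and vitronectin, ITGA5 (alpha 5, which pairs with beta 1; chr12:54395261-54419460, minus strand) was at 148 and 137 CPM in static cells, 168 and 228 CPM under low flow, and 222 and 208 CPM under high flow. Every flow library was above both static libraries, with low flow 1 the lowest of them. Its log2 fold change was 0.47 (SE 0.12, adjusted p 0.0329) under low flow and 0.60 (SE 0.12, adjusted p 0.00651, 1.51-fold) under high flow. The low flow call rested on low flow 2: without it the log2 fold change was 0.24 and the adjusted p 0.453. It was also lost without any other single library except low flow 1, with adjusted p of 0.111 and 0.258 without static 1 and 2 and 0.0626 and 0.0638 without high flow 1 and 2. The high flow call was lost without static 2 (0.127) and without high flow 1 (0.0921).

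ITGB5 (beta 5, a partner of alpha V in vitronectin binding; chr3:124761948-124901418, minus strand) had 191 and 198 CPM in static cells, 224 and 283 CPM under low flow, and 284 and 258 CPM under high flow. Again no flow library overlapped the static pair. ITGB5 rose by a log2 fold change of 0.38 (SE 0.11, adjusted p 0.0458) under low flow and 0.48 (SE 0.11, adjusted p 0.00947, 1.39-fold) under high flow. Leaving out low flow 2 reduced the first to 0.21 (adjusted p 0.561), and the adjusted p was 0.165 and 0.182 without static 1 and 2 and 0.0866 and 0.0879 without high flow 1 and 2. The second was not called without static 1 (0.0583), static 2 (0.0836) or high flow 1 (0.151).

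ITGAV (alpha V) was at 91.5 and 84.2 CPM in static cells, 106 and 102 CPM under low flow, and 89.1 and 109 CPM under high flow. High flow replicate 1 fell between the static libraries, and neither log2 fold change passed, at 0.25 (SE 0.11, adjusted p 0.17) and 0.17 (SE 0.11, adjusted p 0.292). ITGB3 (beta 3) was low, at 5.95 and 5.30 CPM in static cells, 6.78 and 12.0 CPM under low flow, and 9.05 and 8.44 CPM under high flow. No flow library overlapped the static ones, but the log2 fold changes of 0.75 (SE 0.24, adjusted p 0.0891) and 0.64 (SE 0.24, adjusted p 0.103) missed the threshold. The low flow value was 1.10 (adjusted p 6.27e-06) without low flow 1 and 0.27 (adjusted p 0.668) without low flow 2. Its values are uncertain, since 51.6% of its exon bases are shared on the same strand with AC068234.1, whose count was 0.529 to 0.898 of that of ITGB3. Platelet alpha IIb (ITGA2B) did not exceed 0.768 CPM.

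ITGB1 moved the other way without passing the test. Its level was 1175 and 1311 CPM in static cells, 1085 and 1049 CPM under low flow, and 991 and 1024 CPM under high flow. The 4 flow libraries were all below the static ones, with log2 fold changes of -0.22 (SE 0.11, adjusted p 0.217) and -0.30 (SE 0.11, adjusted p 0.0633). In DESeq2 the high flow value was called lower (log2 fold change -0.30, adjusted p 0.0138). It was also called lower with only the 4 static and high flow libraries (-0.31, adjusted p 0.0463). RLE normalization (0.0625), no expression filter (0.0841) and the replicate number as a block (0.114) did not call it. With offsets for gene length and GC content it was -0.17 (adjusted p 0.236). Leaving out 1 library gave high flow values from -0.38 (without static 1) to -0.22 (without static 2). The laminin receptor chains ITGA3 (762 to 970 CPM), ITGA6 (399 to 557 CPM) and ITGA7 (0.652 to 1.43 CPM) did not pass in any comparison. All 3 had positive log2 fold changes under both flow rates, and DESeq2 called ITGA3 higher under high flow.

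ITGB4, the beta chain of the alpha 6 beta 4 laminin receptor of hemidesmosomes, had the largest log2 fold change under high flow of the 35 tested members and was not called. It is described because of that value, after it was seen. Its levels were 12.7 and 11.9 CPM in static cells, 19.1 and 42.6 CPM under low flow, and 53.3 and 47.0 CPM under high flow. The 3 conditions did not overlap, and the low flow libraries differed by more than the libraries of either other condition. The log2 fold change was 1.34 (SE 0.49, adjusted p 0.243) under low flow and 2.03 (SE 0.49, adjusted p 0.0969, 4.09-fold) under high flow. The low flow value was 1.80 (adjusted p 1.05e-18) without low flow 1 and 0.64 (adjusted p 0.00659) without low flow 2, and DESeq2 called it (0.0345). When either low flow library was left out, the high flow value was 2.04 and passed (adjusted p 5.85e-26 without low flow 1 and 2.17e-25 without low flow 2). It also passed with only the 4 static and high flow libraries (1.47e-18) and in DESeq2 (0.000256). It did not pass with RLE normalization (0.0967), without the expression filter (0.187) or with the replicate number as a block (0.111). Nor did it pass with length and GC offsets (log2 fold change 1.72, adjusted p 0.114). Without a static or a high flow library the adjusted p was 0.195 to 0.377. Of 6 epithelial markers, 5 exceeded 1 CPM in every library and CDH1 did not exceed 0.0563 CPM. The 6 summed to 334 to 371 CPM in static cells, 431 to 444 under low flow and 457 to 516 under high flow. Most of this sum was KRT8, KRT18 and KRT19. EPCAM went the other way, from 3.80 and 4.26 CPM in static cells to 2.69 and 2.83 CPM under high flow. CLDN4 overlapped between the conditions. The part of these markers in the ITGB4 values was not tested.

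Among the leukocyte integrin chains, ITGAM (alpha M, a chain of complement receptor 3) was the single member that fell. Its counts were 23 and 19 in static cells, 29 and 9 under low flow, and 11 and 17 under high flow, which correspond to 1.27 and 0.825, 0.636 and 0.187, and 0.257 and 0.319 CPM. All 4 flow libraries were below the static ones on the CPM scale. ITGAM had a log2 fold change of -1.82 (SE 0.53, adjusted p 0.0294) under high flow and -1.33 (SE 0.51, adjusted p 0.121) under low flow. The low flow value was -2.45 (adjusted p 0.00455, called lower) without low flow 1 and -0.70 (adjusted p 0.668) without low flow 2. The high flow call was lost without static 1 (0.170), static 2 (0.109), high flow 1 (0.191) or high flow 2 (0.107), and DESeq2 gave it no adjusted p. Of 8 leukocyte markers, 2 (CD68 and CSF1R) exceeded 1 CPM in every library. The list summed to 303 to 310.0 CPM in static cells, 270.4 to 274 under low flow and 260.2 to 341 under high flow. Nearly all of this was CD68, at 258 to 339 CPM, so the sum says little of the other markers. The part of these markers in the ITGAM and FERMT3 values was not tested. ITGB2, the shared beta chain of leukocyte integrins, was at 26.6 to 36.5 CPM and ITGAE (alpha E) at 9.57 to 11.9 CPM, and neither passed. With length and GC offsets ITGB2 was called lower under high flow. ITGAX and ITGB7 did not exceed 0.623 CPM, ITGB6 did not exceed 0.275 CPM, and ITGB8, a beta chain that pairs with alpha V, was at 7.22 to 10.6 CPM.

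**Figure D3:**
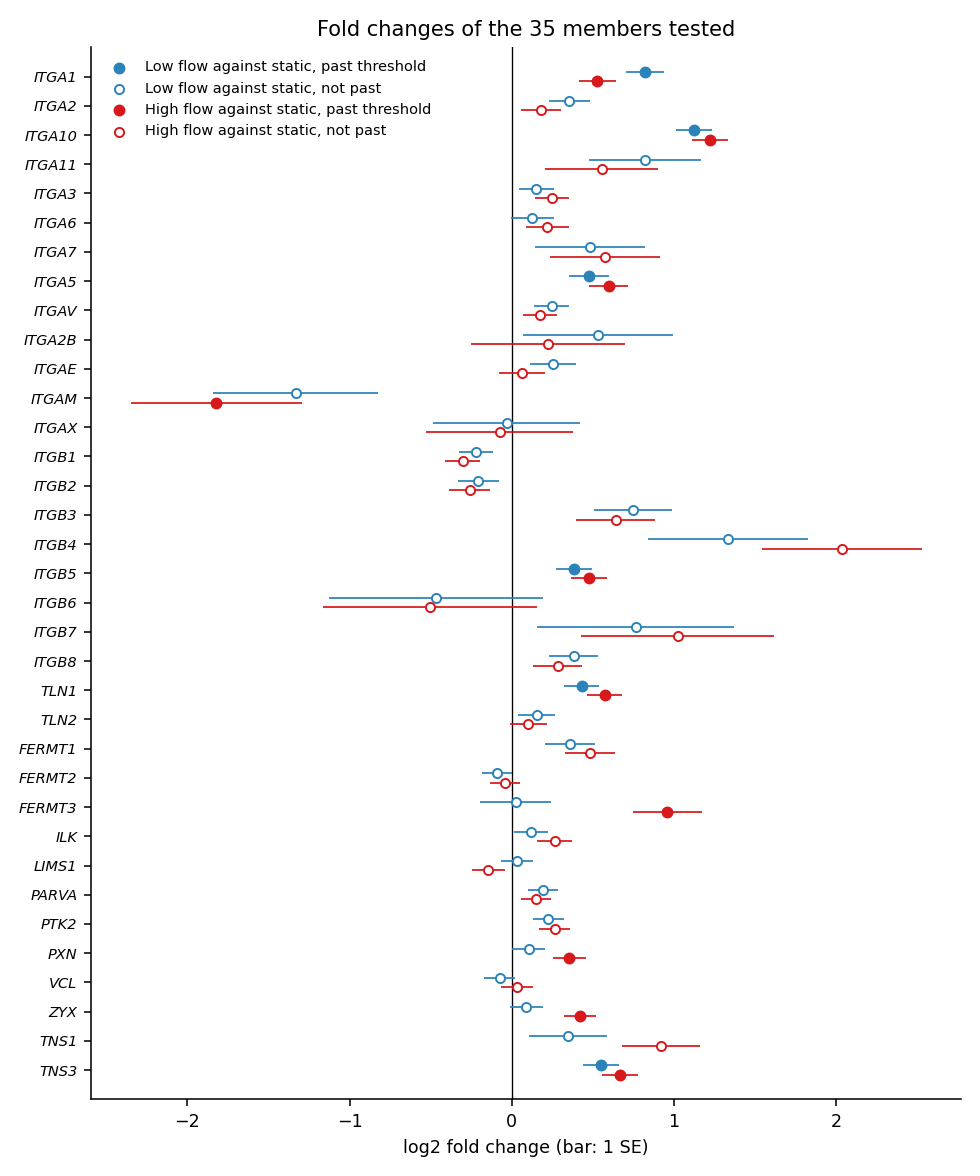
Log2 fold change of the 35 tested members for low flow and high flow against static cells, with bars of 1 SE; filled points passed the threshold and open points did not. ITGB4 has the largest positive value, 2.03 under high flow, with a wide error, and ITGAM the largest negative one, -1.82.

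The makeup of the receptor transcripts was described on the per kilobase scale, as shares of the summed alpha or beta level, with no test. ITGB1 made up 83.5% and 84.6% of the beta transcripts in static cells, 80.0% and 75.2% under low flow, and 73.5% and 75.9% under high flow. ITGB5 made up 12.6% and 11.9%, 15.4% and 18.9%, and 19.7% and 17.8%. The static libraries therefore had the highest ITGB1 and the lowest ITGB5 shares. ITGB4 went from 0.800% and 0.680% in static cells to 3.51% and 3.10% under high flow. Among alpha transcripts, ITGA2 (29.1 to 34.6%), ITGA3 (23.9 to 28.3%) and ITGA6 (21.8 to 26.4%) led in every library. ITGA10 held 1.74% and 1.44% in static cells, 2.88% and 2.76% under low flow, and 3.25% and 2.85% under high flow. The summed alpha level was 275 and 307 CPM per kilobase in static cells, 319 and 391 under low flow, and 351 and 353 under high flow. The summed beta level was 234 and 258 CPM per kilobase in static cells, 226 and 232 under low flow, and 224 and 224 under high flow. Protein and surface levels were not measured.

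**Figure D4:**
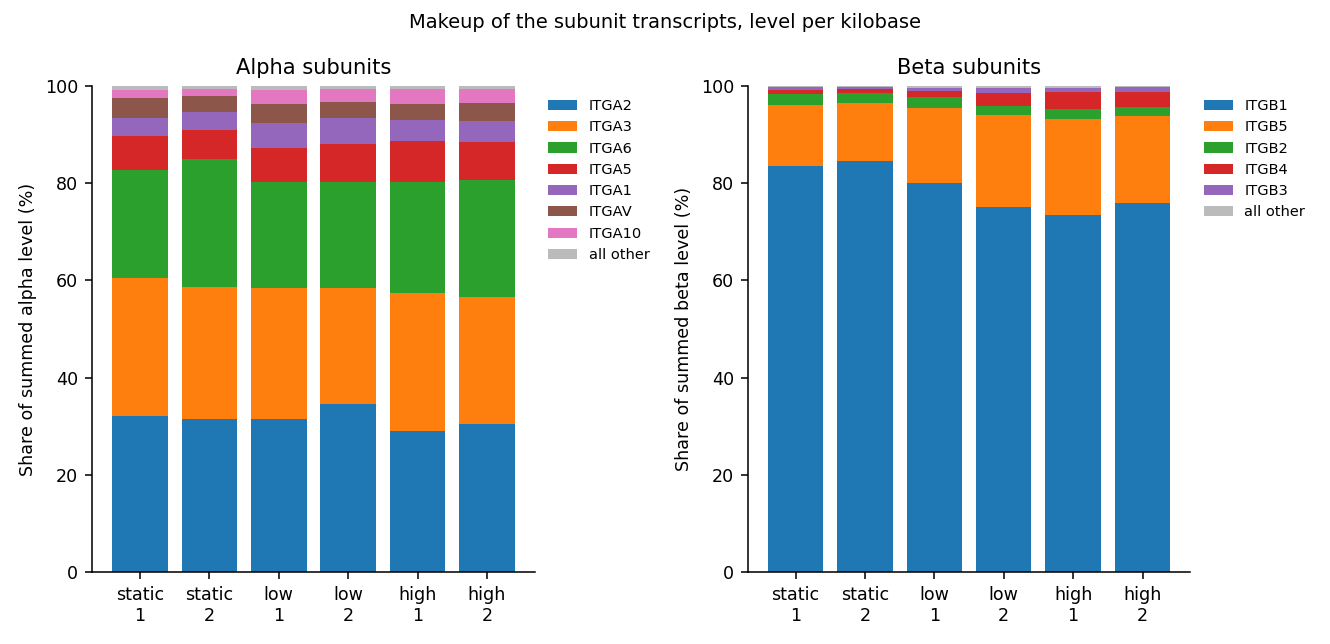
Share in percent of each subunit in the summed alpha (left) and beta (right) transcript level per kilobase, 1 stacked bar per library. ITGB1 takes 73.5 to 84.6% of the beta bar and ITGB5 most of the rest, while 3 chains, ITGA2, ITGA3 and ITGA6, take most of the alpha bar.

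Of the proteins that activate integrins, TLN1 (talin 1; chr9:35696948-35732395, minus strand) rose under both flow rates. It was at 339 and 379 CPM in static cells, 443 and 526 CPM under low flow, and 550 and 520 CPM under high flow, with no overlap between static and flow libraries. TLN1 rose by a log2 fold change of 0.43 (SE 0.11, adjusted p 0.0238) under low flow and 0.57 (SE 0.11, adjusted p 0.00278, 1.49-fold) under high flow. The low flow call was lost without any 1 library other than low flow 1: the adjusted p was 0.128 and 0.0838 without static 1 and 2, 0.277 without low flow 2, and 0.0562 and 0.0574 without high flow 1 and 2. The high flow call was lost without high flow 1 (0.072) and with length and GC offsets, where the log2 fold change was 0.31 (adjusted p 0.0522). Talin 2 (TLN2) stayed at 20.0 to 24.2 CPM and did not pass.

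FERMT3 (kindlin 3, known from blood cells; chr11:64206678-64223886, plus strand) differed in its pattern from TLN1. It was at 5.90 and 4.73 CPM in static cells, 5.20 and 5.55 CPM under low flow, and 12.7 and 7.96 CPM under high flow. The low flow libraries lay between the static ones, and both high flow libraries were above all others. Its log2 value under low flow was 0.02 (SE 0.22, adjusted p 0.966), and reached a log2 value of 0.96 (SE 0.21, adjusted p 0.00915, 1.94-fold) under high flow. The high flow call was lost without high flow 1 (log2 fold change 0.59, adjusted p 0.171) and without static 2 (0.161). Kindlin 1 (FERMT1) was at 85.3 and 93.1 CPM in static cells, 92.6 and 137 under low flow, and 125 and 124 under high flow. Its high flow value missed the threshold (log2 fold change 0.48, SE 0.15, adjusted p 0.065). That value was called higher without the expression filter, in DESeq2, with the replicate number as a block and with only the 4 libraries compared. RLE normalization and length and GC offsets did not call it. Kindlin 2 (FERMT2) stayed at 107 to 119 CPM in all libraries and did not pass.

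None of the 3 scaffold members passed in any comparison. ILK (integrin-linked kinase) was at 78.8 and 67.9 CPM in static cells, 75.2 and 83.9 CPM under low flow, and 92.4 and 83.5 CPM under high flow, and the static and low flow libraries overlapped. Its log2 fold changes were 0.12 (SE 0.11, adjusted p 0.537) and 0.26 (SE 0.11, adjusted p 0.104). ILK shares 68.1% of its exon bases with TAF10 on the opposite strand, and no label says whether the counting used strand. LIMS1 (PINCH1), which has near-identical copies in the genome and is uncertain for that reason, was at 44.2 to 52.9 CPM, and PARVA (alpha-parvin) at 86.9 to 106 CPM.

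PTK2 (focal adhesion kinase) was at 190.4 and 189 CPM in static cells, 211 and 233 CPM under low flow, and 224 and 231 CPM under high flow. No flow library overlapped the static ones, but the log2 fold changes of 0.23 (SE 0.10, adjusted p 0.158) and 0.27 (SE 0.10, adjusted p 0.0707) did not pass. The high flow value passed in DESeq2 (0.0305) and with length and GC offsets (0.0321). PXN (paxillin, a scaffold bound by focal adhesion kinase; chr12:120210439-120265771, minus strand) was at 238 and 212 CPM in static cells, 225 and 259 CPM under low flow, and 291 and 284 CPM under high flow. Static and low flow libraries overlapped, and both high flow libraries were above all others. The log2 fold change was 0.10 (SE 0.10, adjusted p 0.583) under low flow and 0.36 (SE 0.10, adjusted p 0.0279, 1.28-fold) under high flow. The high flow call was lost without static 2 (0.223), high flow 1 (0.198) or high flow 2 (0.122). With length and GC offsets the high flow log2 fold change was 0.10 (adjusted p 0.461).

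Of the 4 actin-linking members, TNS3 rose under both flow rates, ZYX rose under high flow, and TNS1 and VCL did not pass; all 4 had both high flow libraries above both static ones. TNS3 (tensin 3; chr7:47275154-47582558, minus strand) went from 147 and 137 CPM in static cells to 185 and 231 CPM under low flow and 237 and 215 CPM under high flow. Static and flow libraries did not overlap. These levels gave a log2 fold change of 0.55 (SE 0.11, adjusted p 0.00882) under low flow and 0.67 (SE 0.11, adjusted p 0.00119, 1.59-fold) under high flow. The low flow call was lost without static 2 (0.112) and without low flow 2 (0.102), and the high flow call without high flow 1 (0.0507).

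ZYX (zyxin, a LIM protein of mature adhesions and stress fibres; chr7:143381080-143391111, plus strand) was at 122 and 115 CPM in static cells, 121 and 131 CPM under low flow, and 169 and 147 CPM under high flow. As for PXN, only the high flow libraries stood apart from the static ones. The log2 fold change was 0.09 (SE 0.10, adjusted p 0.637) under low flow and 0.42 (SE 0.10, adjusted p 0.011, 1.34-fold) under high flow. The latter was lost without static 2 (0.117), without high flow 1 (0.192) and with length and GC offsets (log2 fold change 0.20, adjusted p 0.114).

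VCL (vinculin, which binds talin under load) was at 368 and 379.7 CPM in static cells, 372 and 338 CPM under low flow, and 380.5 and 384 CPM under high flow. Static and low flow libraries overlapped, the high flow libraries were just above the static ones, and the log2 fold changes were -0.08 (SE 0.10, adjusted p 0.689) and 0.03 (SE 0.10, adjusted p 0.864). Tensin 1 (TNS1) was at 17.1 and 18.7 CPM in static cells, 17.0 and 28.6 CPM under low flow, and 36.1 and 31.9 CPM under high flow. Its high flow log2 fold change of 0.92 (SE 0.24) was just outside the threshold, with an adjusted p of 0.051, and passed without low flow 1 (2.99e-09) or low flow 2 (3.69e-09). It did not pass without static 1 (0.261), static 2 (0.293), high flow 1 (0.169) or high flow 2 (0.0817), nor with length and GC offsets (log2 fold change 0.64, adjusted p 0.119).

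High flow was compared directly with low flow. The sequencing lanes named in the columns differed in the same way, so flow rate and lane cannot be told apart here. No member passed (edgeR quasi-likelihood test, 0 of 35), where 0.242% of all genes tested were called higher and 0.0919% lower. At an unadjusted p under 0.05, 4 members were higher and 1 was lower, against 5.08% and 4.54% of all genes. High flow libraries stood above low flow libraries without overlap for 6 members and below for 6, against 21.2% and 21.5% of all genes. The median log2 fold change of the members was 0.05. FERMT3 was nearest to the threshold, with a log2 fold change of 0.94 (SE 0.20, adjusted p 0.0683), and was the single member called by DESeq2 (adjusted p 0.017). It was called without low flow 1 (0.0291), low flow 2 (0.0126) or high flow 2 (0.0235), and without high flow 1 its log2 fold change was 0.57 (adjusted p 1). The log2 fold change was 0.33 for ZYX (SE 0.10, adjusted p 0.263), 0.25 for PXN (SE 0.10, adjusted p 0.433) and 0.57 for TNS1 (SE 0.23, adjusted p 0.495). With length and GC offsets these were 0.15, 0.10 and 0.45, and that of FERMT3 was 0.78. ITGA1 was the member with the low unadjusted p in the other direction, at -0.29 (SE 0.12, adjusted p 0.417), and was called lower when low flow 1 was left out (-0.47, adjusted p 0.028). When low flow 2 was left out, ITGB4 (0.70 with all libraries, adjusted p 0.708) was called higher at 1.39 (adjusted p 1.52e-11) and TNS1 at 1.00 (adjusted p 1.95e-06). Without the expression filter, FERMT3 (8.33e-06) and TNS1 (0.000426) were called higher. A call against static cells under 1 flow rate alone, as for FERMT3, PXN, ZYX and ITGAM, is thus not shown to differ between the rates in this test.

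The same fit gave counts for 5 lists of other genes of integrin adhesion. Of 38 genes for integrin ligands, 30 were tested; 6 rose under low flow and 19 under high flow, and none fell (at an unadjusted p under 0.05, 1 and 0 were lower). These are 20.0% and 63.3% of the tested ligand genes, where 3.25% and 7.49% of all genes tested were called higher. Under high flow 5 rose without high flow 1, 12 without high flow 2, 10 without static 1 and 6 without static 2; under low flow 1 rose without either static library and 12 without low flow 1. The leading ligand genes by p under high flow were COL1A1, a chain of type I collagen (12.2 CPM as a mean in static cells and 41.5 CPM under high flow, 3.39-fold), THBS1 (thrombospondin 1, 2.31-fold), FBN2 (fibrillin 2, 3.36-fold) and CCN2 (connective tissue growth factor, 2.09-fold). Under low flow they were FBN2 (3.80-fold), COL1A1 (1.65-fold), FBN1 (fibrillin 1, 1.37-fold) and LAMB2 (laminin beta 2, 1.45-fold). COL1A1, CCN2 and THBS1 were also higher under high than under low flow, by 2.06-, 1.99- and 1.73-fold, the only 3 ligand genes called there; without high flow 1 no ligand gene was called there, and without low flow 2 10 were. The median log2 fold change of the ligand genes was 0.26 under low flow and 0.43 under high flow.

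Of 26 adaptors, kinases and phosphatases, all tested, 1 rose under low flow: NEDD9, a docking protein of the p130Cas family (3.09-fold). That is 3.85% of the list, close to the 3.25% of all genes. Under high flow 4 (15.4%, against 7.49% of all genes) rose (NEDD9, TGFB1I1, SRC and BCAR1) and 1 fell (NCK1, 1.31-fold lower). Of all genes tested, 3.25% were called higher and 3.49% lower under low flow, and 7.49% higher and 6.43% lower under high flow. Of 27 tested actin linkers, 3 (11.1%) rose under low flow, among them TNS4 and FBLIM1. Under high flow 7 (25.9%) rose, among them TNS4 (tensin 4, 2.33-fold), FBLIM1 (migfilin, 1.56-fold) and PDLIM7 (1.42-fold). RSU1, a partner of PINCH1, and ENAH fell there. Of 18 tested regulators of integrin activity and traffic, 1 (5.56%) rose and 1 fell under low flow. Under high flow 3 (16.7%) of them rose and 2 fell. SNX17, a sorting nexin that recycles integrins, rose and the small GTPase RAP1B fell under both flow rates. Falls of 1 or 2 genes per list are not read as a result about the list. NISCH and FHL2 also rose and KRIT1 also fell under high flow. Of 13 tested membrane partners, none passed under low flow (0 also in DESeq2). At an unadjusted p under 0.05, 4 were higher and 1 was lower there, against 11.7% and 11.7% of all genes. Under high flow 2 (15.4%) rose, CD81 and SDC4 (syndecan 4). Between the flow rates, none of these 4 lists had a called gene, DESeq2 called 1 adaptor, and at an unadjusted p under 0.05 there were 4 adaptors, 6 actin linkers, 1 regulator and 0 membrane partners, all higher, against 5.08% of all genes. In these 4 lists, counts under high flow fell to 0 or 1 without high flow 1 and to 0 to 2 without static 2. The median log2 fold change of the 4 lists was 0.02 to 0.06 under low flow and 0.04 to 0.17 under high flow.

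On the CPM scale, low flow 2 was nearer than low flow 1 to the high flow mean for 24 of the 35 tested members, ITGA5, ITGB5, ITGB4, TLN1, TNS1, TNS3 and FERMT1 among them, and for 50.9% of all genes. Low flow 1 was the nearer for the other 11, ITGA1, ITGA2, ITGB3 and VCL among them. Without low flow 2, 3 members rose under low flow, and without low flow 1, 11 rose. Calls over all genes moved as well, from 6.74% with all libraries to 1.52% and 14.5%. Without high flow 1, a single member, ITGA10, rose under high flow, and calls over all genes went from 13.9% to 1.38%. Over all genes the log2 fold change also moved with GC content: Spearman's rho across 20000 genes, which are not independent replicates, was 0.06 for low flow and 0.31 for high flow against static cells, and 0.45 for high against low flow. With length and GC offsets, 3 of the 35 members rose under low flow (ITGA1, ITGA10 and TNS3). Under high flow 7 rose (ITGA1, ITGA10, ITGA5, ITGB5, FERMT3, PTK2 and TNS3) and 2 fell (ITGAM and ITGB2). Of all genes, 8.46% and 9.62% were called in either direction with the offsets, against 6.74% and 13.9% without them. Under low flow the members called thus became fewer while calls over all genes did not. The low flow calls of ITGA5, ITGB5 and TLN1 were lost with these offsets (adjusted p 0.0547, 0.0592 and 0.062) and with only the 4 libraries compared (0.0726, 0.0943 and 0.0634). The part of GC content in the calls of TLN1, PXN and ZYX beyond this fit was not tested.

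**Figure D5:**
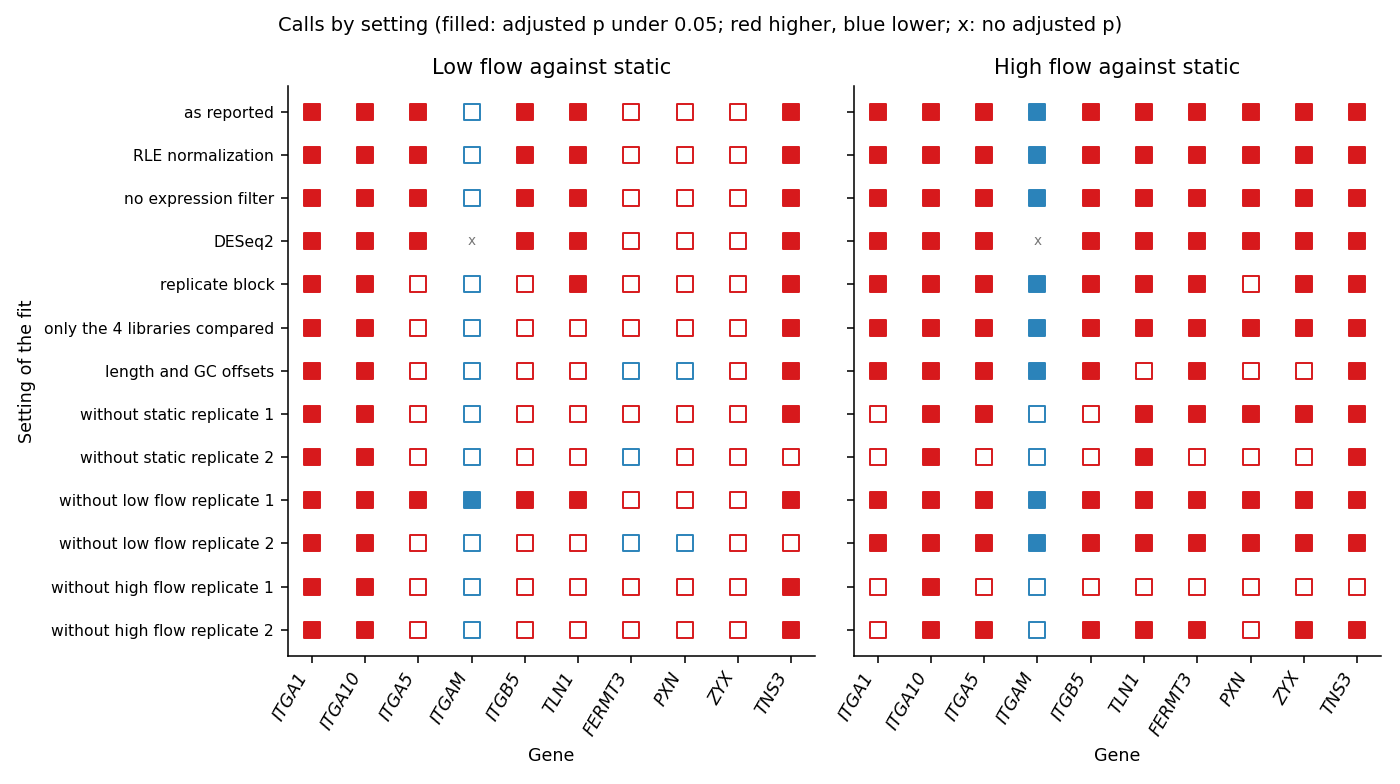
Calls of the 10 members that passed in any comparison under each setting of the fit, 1 panel per comparison with static cells; filled cells are adjusted p under 0.05, red higher and blue lower, and x marks a missing adjusted p. ITGA10 is filled under every setting shown in both panels, and ITGA1 under every setting shown for low flow.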

How the data were processed

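RNA was extracted with TRIzol and poly(A) libraries were made with a stranded kit from KAPA, per the labels' protocols. The deposited values are raw counts per gene, made with STAR and featureCounts on hg38 per the submitters' processing notes; versions, settings and annotation are not given in the sources used here. Columns were matched to samples by the column names in the labels.

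From these counts, CPM used TMM library sizes. All 6 libraries entered 1 fit with 1 coefficient per condition in edgeR 4.0.16 (R 4.3.3): TMM, robust quasi-likelihood test, filterByExpr with a minimum count of 10 (20676 genes), 3 residual degrees of freedom, two-sided, Benjamini-Hochberg adjustment over all genes tested in each comparison. SEs were derived from the test statistic. The fit was tested on simulated data of 20676 genes. In each comparison 67 genes were changed 1.5-fold, 67 were changed 2-fold and 66 were changed 3-fold. Of those changed 1.5-fold, 58.2% were recovered for low flow and 59.7% for high flow against static, and 65.7% for high against low flow. False calls were 20, 25 and 40, to be read against the genes called and not against all genes. In each comparison they were a larger share of the calls than the adjusted p threshold of 0.05 aims for. Member calls with an adjusted p near 0.05 are therefore less certain than that value states. Genes of low level were not changed, and no lane or GC effect was simulated.

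Positions and exon lengths are from GENCODE 29 (GRCh38), in which all 40 members matched 1 gene; promoter sequences are from RefSeq (GRCh38.p14), with entries for 28 members. SENP3-EIF4A1, a readthrough gene, had 0.936 to 0.952 of the counts of SENP3 and EIF4A1 together, so genes overlapping on 1 strand share reads. Described in full were members called in any comparison and ITGB1, ITGAV, ITGB3, ITGA5, PTK2, PXN, VCL, TLN1, ZYX and ILK; from the lists, up to 4 genes per comparison and direction by p, of which 1 is not reported here. Alternatives were RLE normalization, no expression filter, DESeq2 1.42.0, the replicate number as a block, only the 4 libraries compared, length and GC offsets, and leaving out each library. The members and lists were chosen with earlier results of these data known.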

Additional observations from a re-analysis of the deposited data

How the results depend on the processing

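The counts of members that rose were 6 under low flow and 9 under high flow. Leaving out 1 library gave 2 to 11 and 1 to 13; of members that fell, 0 to 2 in each; between flow rates, 0 to 3 higher and 0 to 1 lower. Calls over all genes moved with the library left out as well. Without the expression filter 40 members were tested, of which 10 rose under low flow, 14 under high flow and 2 between rates. Of all genes, 5.96%, 9.36% and 0.635% were called in either direction there. DESeq2 gave an adjusted p for 30 members under high flow and 33 between rates. Of these, 14 and 1 rose, where 17% and 0.66% of all genes were called. With only the 4 libraries compared, 3 rose under low flow and 2 fell under high flow, where 3.14% and 20.7% of all genes were called. With length and GC offsets the counts were likewise 3 and 2, where 8.46% and 9.62% of all genes were called. Deviations of same-numbered libraries correlated at -0.14 (static and low flow), -0.05 (static and high flow) and 0.14 (low and high flow). With 2 libraries each, the numbers were not taken to pair them. With the replicate block 4 members rose under low flow, 10 rose and 1 fell under high flow, and 0 differed between rates. Of all genes, 4.39%, 11% and 0.266% were called under the block. The low flow calls of ITGA5 (adjusted p 0.0645) and ITGB5 (0.0783) and the high flow call of PXN (0.0521) were not made under it.

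For ligands the leave-one-out range was 1 to 12 under low flow, 5 to 20 under high flow and 0 to 10 between rates; no filter gave 12 under low flow and 5 between rates, DESeq2 gave 12 under low flow, and the 4 compared libraries 1 between rates. For adaptors the ranges were 0 to 2, 0 to 6 and 0 to 1; offsets gave 2 under each flow rate, and no filter, DESeq2 and the replicate block gave 1 between rates. For actin linkers they were 0 to 6, 1 to 12 and 0 to 2; under low flow no filter gave 6, DESeq2 5, the replicate block 1 and the 4 compared libraries 0. For regulators they were 0 to 5, 1 to 6 and 0 to 0; DESeq2 gave 4 under low flow and offsets 3 under high flow. For membrane partners they were 0 to 3, 0 to 5 and 0 to 0; no filter gave 2 under low flow, and under high flow RLE gave 1, no filter and DESeq2 4, the replicate block 0 and the 4 compared libraries 5.

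Signs that reversed were all of log2 fold changes that had not passed. Under low flow, FERMT3 was -0.009 with offsets and -0.129 to 0.183 over the leave-one-out fits, PXN -0.003 and -0.002 to 0.205, and TNS1 -0.074 to 0.675. Between rates, the leave-one-out range was -0.011 to 0.224 for ITGA10, -0.081 to 0.360 for ITGA5, -0.229 to 0.067 for ITGAV, -1.122 to 0.625 for ITGAM, -0.457 to 0.368 for ITGB3, -0.064 to 0.275 for ITGB5, -0.029 to 0.113 for PTK2 and -0.035 to 0.288 for TNS3. With offsets ITGAV was 0.052 and ITGB1 0.031 between rates. ITGB4 and TNS1 were added to these analyses after their values were seen. The causes were not tested. Depth was lowest in the static libraries, which limits members below 1 CPM.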
